A study of Rattus norvegicus with 6 samples.

Results

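The miRNAs miR-21, miR-31 and miR-210 are 3 small RNAs known from fibrosis, wound healing and hypoxia, and they were followed here in lens capsules of selenite-treated and control rat pups. They were found by name in the table of miRNA read counts, as every rat name of miR-21, miR-31, miR-31a, miR-31b or miR-210 with both arms. Of the 910 names in the table, 7 met this rule, namely rno-miR-21-5p, rno-miR-21-3p, rno-miR-31a-5p, rno-miR-31a-3p, rno-miR-31b, rno-miR-210-3p and rno-miR-210-5p. Counts were found for 6 of the 7, and 4 had enough reads to be tested among 341 miRNAs. All 6 libraries came from Sprague-Dawley rat pups, 8 days old when taken into the experiment, and the labels give no genetic change. The Na2SeO3 group (n = 3) received sodium selenite under the skin of the neck at 20 μmol/kg on days 3, 5 and 7, and the control group (n = 3) received saline on the same days. The lenses were taken on day 15, and each library holds the small RNA from the capsular membrane of 1 lens of 1 rat.

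A miRNA gene is transcribed into a hairpin, from which a 5p and a 3p arm are cut, and usually one arm is kept as the mature miRNA while the other is degraded. The kept arm pairs with target mRNAs through its seed, bases 2 to 8, and lowers their stability and translation. miR-21 is induced by growth factor, STAT3 and TGF-β signalling, and it is known for lowering Pdcd4 and Reck in injured and fibrotic tissue. miR-31 is raised at the edge of skin wounds, where it promotes the growth and migration of keratinocytes. miR-210 is the best known miRNA induced by the hypoxia-inducible factors, and it lowers Iscu, an assembly factor of iron-sulphur clusters in mitochondria. Selenite cataract is a model of oxidative injury to the lens, and each of these miRNAs has been tied to oxidative or hypoxic stress in other tissues.

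The mature sequences are shown with the seed in capitals, because the seed decides which mRNAs a miRNA can pair with and because a shared seed would join names into 1 family. They were taken from RefSeq (assembly GRCr8), in which all 7 names were found.
rno-miR-21-5p: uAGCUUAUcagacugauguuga
rno-miR-21-3p: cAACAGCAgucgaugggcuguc
rno-miR-31a-5p: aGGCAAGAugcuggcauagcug
rno-miR-31a-3p: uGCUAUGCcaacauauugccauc
rno-miR-31b: cUAUGCCAgcaucuugccu
rno-miR-210-3p: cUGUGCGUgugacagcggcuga
rno-miR-210-5p: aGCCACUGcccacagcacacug
The 7 seeds differed from each other, and for each of them 0 other mature names in the RefSeq table carried the same 7 bases. By seed the members form no family. The sequence of rno-miR-31b, 19 bases long, is the reverse complement of bases 1 to 19 of rno-miR-31a-5p. It belongs to Mir3554, which RefSeq places on the opposite strand over Mir31.

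The 3 hairpins show where the arms lie, with both mature arms in capitals and the 5p arm first. In GRCr8, Mir21 lies at chr10:71902600-71902691, Mir31 at chr5:108714849-108714954 and Mir210 at chr1:205755923-205756032, all 3 on the minus strand. These positions belong to GRCr8 and not to the build behind the counts, which is not named in the sources used here.
Mir21: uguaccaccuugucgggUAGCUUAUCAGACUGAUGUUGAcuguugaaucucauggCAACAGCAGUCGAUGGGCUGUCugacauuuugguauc
Mir31: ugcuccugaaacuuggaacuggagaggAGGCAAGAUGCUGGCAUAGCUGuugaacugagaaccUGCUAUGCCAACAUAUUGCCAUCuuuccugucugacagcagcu
Mir210: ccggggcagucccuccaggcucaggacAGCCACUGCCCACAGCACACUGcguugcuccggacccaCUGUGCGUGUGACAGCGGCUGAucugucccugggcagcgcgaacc
Mir21 lies between the protein-coding genes Tubd1 and Vmp1 in that annotation, outside both. Mir31 and Mir210 each overlap an annotated lncRNA gene, LOC130062807 and LOC102553043.

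The counts of the libraries summed to between 1806596 and 2829903 in the control group and between 663096 and 968151 in the Na2SeO3 group, so the same CPM (counts per 1000000 counts of the library) rests on fewer reads in the treated libraries. A count of 3, the limit that a count of 0 allows, stood for 1.06 to 1.66 CPM in the control group and 3.10 to 4.52 CPM in the Na2SeO3 group. Levels below are CPM after TMM scaling, which sets libraries against each other so that most miRNAs do not change. The label lens capsule was checked against miRNAs known from lens and eye surface epithelium, and all 8 were abundant enough to be tested, with a summed level of 236480 to 301060 CPM over the 6 libraries. Much of this sum was miR-182, miR-183-5p and miR-96-5p, a cluster also known from photoreceptors and other sensory cells, with means of 90065, 37042 and 44379 CPM in the control group. Markers of other cell types were present as well, with sums in the control group of 37364 to 40853 CPM for mesenchyme, 29576 to 36919 CPM for neurons, 20586 to 26070 CPM for endothelium and 6374 to 8151 CPM for muscle. Libraries are bulk samples, in which fewer cells of a type and less RNA per cell cannot be told apart. No label says that the libraries of a group were made on separate days, and none names a batch.

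All 4 tested members fell in the lens capsules of the Na2SeO3 group. The drop was 1.44-fold in miR-21-5p, 1.83-fold in miR-31a-5p, 2.04-fold in miR-210-3p and 2.18-fold in miR-31a-3p. The adjusted p of each was below 0.05 (edgeR, quasi-likelihood), whereas 13.8% of the 341 miRNAs tested passed as lower and 20.8% as higher. This count of 4 was 2 without control library 3 and 2 with library size as the only scale. It was 3 without control library 1 or 2 or Na2SeO3 library 1 or 3. With an absolute log2 fold change above 1 required as well, which defines a DEmiRNA, 2 of the 4 passed, miR-210-3p and miR-31a-3p, against 4.99% of all miRNAs tested that were down-regulated DEmiRNAs. This count of 2 was 0 without control library 3, 1 without control library 1 or 2 or Na2SeO3 library 1 or 3, and 0 with library size as the only scale. The other 3 names had too few reads for a test. The part of the raw reads that was counted under a miRNA name also differed between the groups, with 39.7%, 26.3% and 25.6% in control libraries 1, 2 and 3 against 11.4%, 13.0% and 11.8% in those of the Na2SeO3 group, and its part in the levels of the members was not tested.

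**Figure D1:**
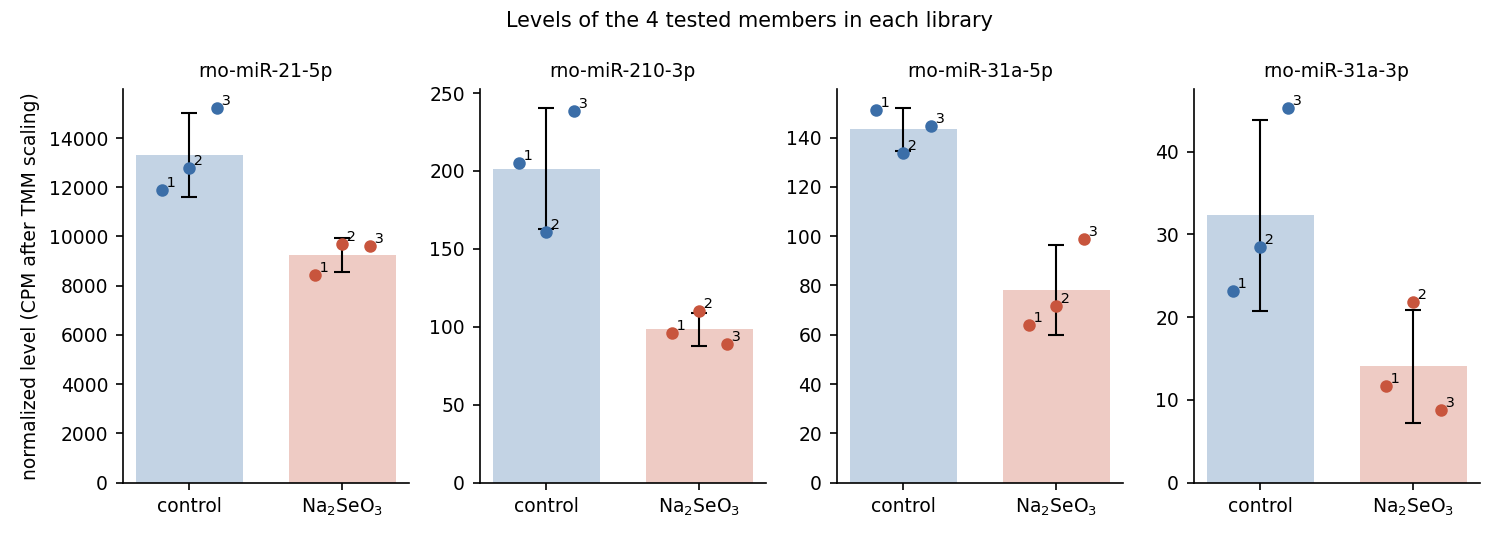
Level of each tested member in every library, in CPM after TMM scaling (vertical axis from 0, a separate scale for each miRNA). Points are libraries with their replicate number, bars are group means and error bars are SD (n = 3). In all 4 panels every control library lies above every Na2SeO3 library, with the smallest gap in rno-miR-31a-3p, between 23.1 CPM in control library 1 and 21.8 CPM in Na2SeO3 library 2.

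miR-21-5p was the abundant member. The control libraries 1 to 3 held 34456, 24742 and 23540 reads of it, and the Na2SeO3 libraries 1 to 3 held 5805, 10678 and 8745. On the CPM scale these were 11902, 12797 and 15234 in the control group and 8453, 9694 and 9619 in the Na2SeO3 group. The groups did not overlap, and control library 3 was the highest of the 6. Mean levels with their SD were 13311 ± 1724 CPM against 9255 ± 696 CPM (n = 3 per group). On the log2 scale miR-21-5p changed by -0.52 (SE 0.15) with an adjusted p of 0.0137 in edgeR. The 95% interval of this change ran from -0.84 to -0.21, short of the DEmiRNA threshold. By mean CPM it ranked 17 among the 341 miRNAs, and in single libraries it ranked between 16 and 20 among all names. Without control library 3 the log2 fold change was -0.42 and the adjusted p was 0.0711. With library size as the only scale it was -0.32 (adjusted p = 0.0860), so the call of miR-21-5p rested on that library and on the scaling, while its direction was kept.

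The 3p arm of miR-21 was almost missing from the table. How reads were assigned to arms is not described in the sources used here, so the shares below are those of the deposited counts, and the part of the counting in them was not tested. It was read 0 times in the control libraries, beside 82738 reads of the 5p arm, and 1 time in the Na2SeO3 libraries, beside 25228 reads of the 5p arm. In the control group a count of 0 allows a 3p share of up to 0.00363% of both arms, taken as 3 counts of the total. Over all libraries the share was 0.000926% (95% exact binomial interval 2.34e-05% to 0.00516%, counting error only). No difference between the groups in miR-21-3p was detectable at this depth, and a ratio of its arms could not be read as a result, because it would follow the 5p count alone.

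For comparison, both arms of each rat miRNA gene were set side by side. Both arms were listed for 265 genes with a count, and 54 of these had at least 10000 reads of the major arm in the 6 libraries together. Among the 54, the minor arm had a median of 3737 reads per 1000000 reads of the major arm, and in Mir21 it had 9.26. The value was lower in 3 of the 54 genes, Mir1, Mir103a2 and Mir26a. These genes are named because of their values, and a mature arm that 2 genes share was counted for both.

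**Figure D2:**
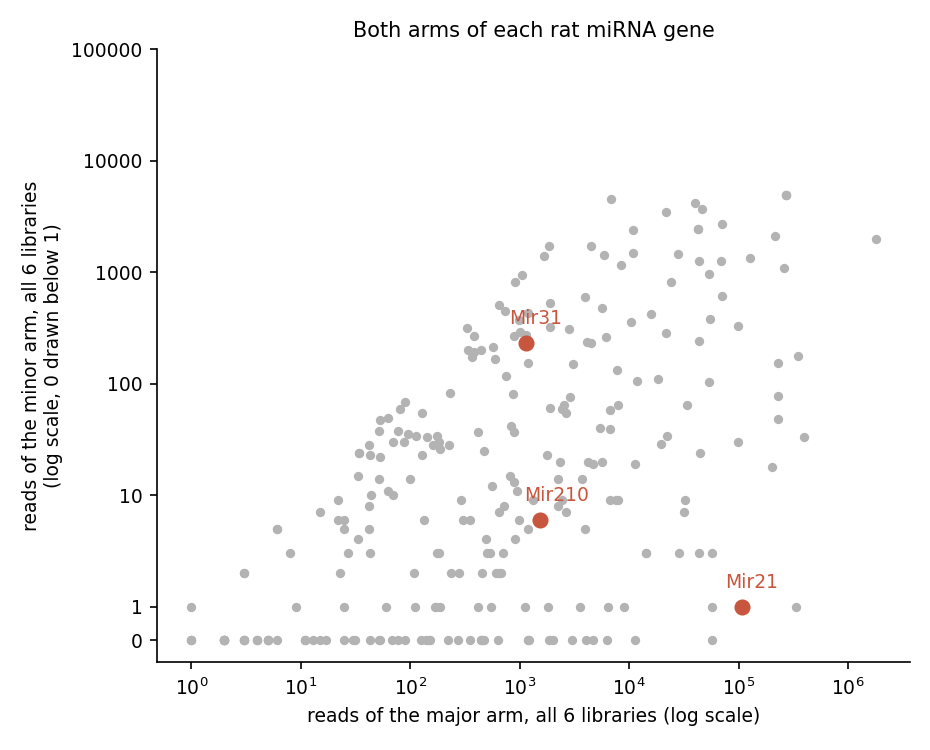
Reads of the minor arm against reads of the major arm for 265 rat miRNA genes with both arms in the table, summed over the 6 libraries (both axes on a log scale, with a minor arm of 0 reads drawn below 1). Each point is a gene. Mir21 sits at the bottom right with 107966 reads of one arm and 1 of the other, Mir210 has 1541 and 6, and Mir31 lies among the genes with 2 well-read arms, at 1134 and 232.

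miR-31 was the member with 2 measurable arms, and both fell in the Na2SeO3 group. The 5p arm, the arm usually kept, had 438, 259 and 224 reads in control libraries 1 to 3, and 44, 79 and 90 reads in Na2SeO3 libraries 1 to 3. The levels were 151, 134 and 144.96 CPM in the control group, which lay close together, and 64.1, 71.7 and 99.0 CPM in the Na2SeO3 group, where library 3 was the highest. The groups did not overlap. Mean levels of rno-miR-31a-5p with their SD were 143 ± 8.78 CPM against 78.3 ± 18.4 CPM (n = 3 per group). The log2 change was -0.87 (SE 0.20, 95% interval -1.30 to -0.44) and its adjusted p 0.0051 in edgeR. It passed the adjusted p-value with each library left out in turn, with the weakest result without control library 1 (adjusted p = 0.0400).

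The 3p arm of miR-31a rested on few reads. Control libraries 1 to 3 held 67, 55 and 70 reads, and Na2SeO3 libraries 1 to 3 held 8, 24 and 8. A count of 8 has an exact 95% Poisson interval of 3.45 to 15.8, which covers counting error only. The levels were 23.1, 28.4 and 45.3 CPM in the control group and 11.6, 21.8 and 8.80 CPM in the Na2SeO3 group, so that control library 1 and Na2SeO3 library 2 nearly met. Mean levels with their SD were 32.3 ± 11.6 CPM against 14.1 ± 6.83 CPM (n = 3 per group). The log2 change was -1.13 (SE 0.37, 95% interval -1.92 to -0.34) and its adjusted p 0.0294 in edgeR. In 5 of the 6 fits that left out a library, rno-miR-31a-3p did not pass. The adjusted p was 0.0585 without control library 1, 0.0906 without control library 2, 0.176 without control library 3, 0.0602 without Na2SeO3 library 1 and 0.128 without Na2SeO3 library 3.

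The balance between the arms of miR-31a did not differ between the groups beyond its spread. The 3p arm made up 13.3%, 17.5% and 23.8% of the reads of both arms in control libraries 1 to 3 and 15.4%, 23.3% and 8.16% in Na2SeO3 libraries 1 to 3. Pooled, it took 17.3% of 1113 reads in the control group (95% exact binomial interval 15.1% to 19.6%) and 15.8% of 253 reads in the Na2SeO3 group (11.5% to 20.9%). These pooled intervals cover counting error only, not the spread between animals. The log2 ratio of 5p to 3p differed by 0.30 between the groups, less than the spread within either (SD 0.51 and 0.86, two-sided exact permutation test, p = 0.6, n = 3 each). The antisense name rno-miR-31b had no count in any library. Among the 116 genes with at least 1000 reads of the major arm, 104 had a smaller minor arm, 5p or 3p, per read of the major arm than Mir31.

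miR-210-3p, the hypoxia-induced member, gave the smallest p-value of the 4. It had 593, 311 and 369 reads in control libraries 1 to 3, and 66, 121 and 81 reads in Na2SeO3 libraries 1 to 3. The levels were 204.8, 161 and 239 CPM in the control group and 96.1, 110 and 89.1 CPM in the Na2SeO3 group. Every control library lay above every Na2SeO3 library, and the libraries of the Na2SeO3 group lay close together. Mean levels of rno-miR-210-3p with their SD were 201 ± 39.1 CPM against 98.3 ± 10.6 CPM (n = 3 per group). The log2 change was -1.03 (SE 0.19, 95% interval -1.45 to -0.61) and its adjusted p 0.0015 in edgeR. It passed the adjusted p-value with each library left out, where the highest value was 0.0194. Its place among the DEmiRNAs was narrow, because the log2 fold change was -0.89 without control library 3, -0.96 without Na2SeO3 library 3 and -0.83 with library size as the only scale.

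The 5p arm of miR-210 was near the floor in every library. Control libraries 1 to 3 held 1, 1 and 4 reads, and each Na2SeO3 library held 0. In the control group it took 0.469% of the reads of both arms (95% exact binomial interval 0.172% to 1.02%, counting error only). In the Na2SeO3 group 0 of 268 reads allows a share of up to 1.12%, again as 3 counts of the total, so no difference in rno-miR-210-5p was detectable at this depth.

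The order of the levels was the same in both groups. Since the mature sequences are of nearly equal length, 22 or 23 bases, CPM can be compared between them, although how well each sequence was captured in the library was not tested. In the control group miR-21-5p had a mean level 66.1 times that of miR-210-3p, which was 1.41 times that of miR-31a-5p, which was 4.44 times that of miR-31a-3p, and no neighbours in this order overlapped. In the Na2SeO3 group the ratios were 94.1, 1.26 and 5.56, and the levels of miR-210-3p and miR-31a-5p overlapped. The spread within a group was larger in the rarest member, where the SD was 35.8% and 48.5% of the mean in the control and Na2SeO3 groups, against 13.0% and 7.52% in miR-21-5p. Because miR-21-5p made up 97.4% of the reads of the 7 names, their summed share follows it. The 7 names accounted for 1.26%, 1.22% and 1.34% of all counts of the control group, by library, and for 0.893%, 1.13% and 1.02% of those of the Na2SeO3 group, without overlap (exact permutation test, two-sided, p = 0.1, n = 3 each, the lowest value this design allows).

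Whether the members fell unequally was asked with the log2 ratio of 2 members within a library, which does not depend on the scaling. Across the 6 pairs the smallest p was 0.1, for miR-21-5p over miR-210-3p (two-sided exact permutation test, n = 3 each), the smallest that 3 libraries against 3 can give, and its adjusted value over the pairs was 0.6. For that pair control libraries 1 to 3 had log2 ratios of 5.86, 6.31 and 5.99, and Na2SeO3 libraries 1 to 3 had 6.45, 6.46 and 6.75. The groups did not overlap, and their means differed by 0.50. For the other 5 pairs the groups overlapped, with differences between -0.17 and 0.67. A p that misses the threshold does not show that the members fell alike.

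Every member tested lay below the median of the 341 miRNAs, a log2 fold change of 0.08. Among the 341 miRNAs tested, 15.2% had a lower log2 fold change than miR-21-5p, 7.33% a lower one than miR-31a-5p, 4.99% a lower one than miR-210-3p and 4.40% a lower one than miR-31a-3p. In each of the 4 the groups did not overlap, as was the case, with the Na2SeO3 group lower, in 21.1% of all miRNAs tested. Scaling to the raw reads of each library that the study lists moved the median of all miRNAs to -1.07, and the members then had log2 fold changes of -1.65 (miR-21-5p), -2.05 (miR-31a-5p), -2.18 (miR-210-3p) and -2.19 (miR-31a-3p). Scaling to library size only moved the median to 0.27. Measured from the median of all miRNAs, the members stayed between -0.58 and -0.60 (miR-21-5p), -0.95 and -0.98 (miR-31a-5p), -1.09 and -1.11 (miR-210-3p) and -1.12 and -1.21 (miR-31a-3p) under these 3 scalings.

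**Figure D3:**
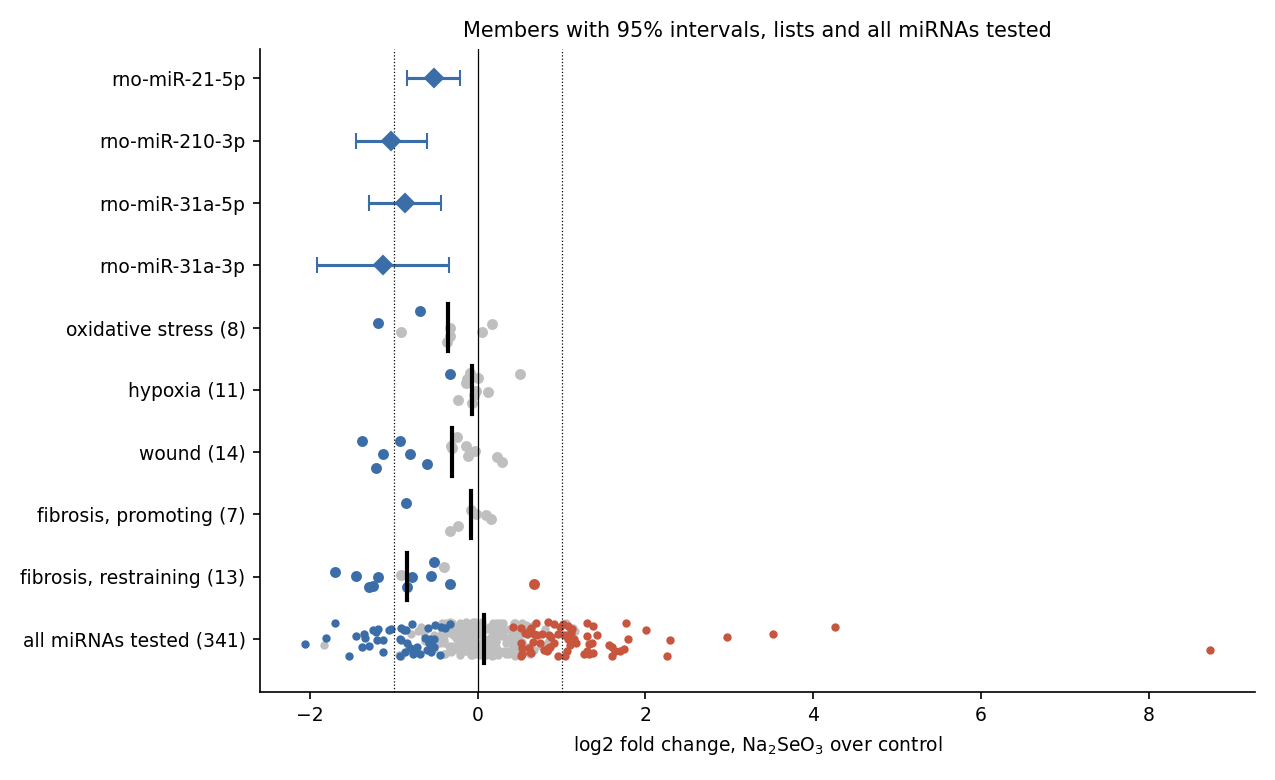
Log2 fold change, Na2SeO3 over control, of the members (diamonds with 95% intervals), of the miRNAs of 5 lists and of all miRNAs tested (points, blue for lower and red for higher at an adjusted p-value of 0.05, grey for not past it). Black bars are medians, dotted lines the DEmiRNA thresholds and numbers in brackets the miRNAs tested. The members sit left of 0, between -1.13 and -0.52, and the medians of the lists lie between -0.84 (fibrosis, restraining) and -0.07 (hypoxia). The point far to the right is tca-miR-3876-5p, which had no count in the control group.

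Other miRNAs known from the same settings were given by lists, as a description. The lists were written with earlier results of these data known, so a count beside the share among all miRNAs tested is no test of a list. Of 7 miRNAs known to promote fibrosis, as miR-21 does, 1 was lower and none higher, near the 13.8% lower among all miRNAs tested, with a median log2 fold change of -0.08. The one that fell was rno-miR-145-5p, a smooth muscle and myofibroblast miRNA, with mean levels and SD of 760 ± 96.9 CPM against 421 ± 30.8 CPM (n = 3 per group) and a log2 change of -0.85 (edgeR, adjusted p = 0.0015). Both arms of miR-199a, miR-214-3p, miR-192-5p, miR-155-5p and miR-34a-5p did not pass, with log2 fold changes between -0.33 and 0.16. Of 13 miRNAs known to restrain fibrosis or the change of epithelium into mesenchyme, 10 were lower and 1 was higher (13.8% and 20.8% among all miRNAs tested), with a median of -0.84. With a library left out, 7 to 9 were lower. Of the 10, miR-26a-5p passed in 0 of those 6 fits and miR-30a-5p and miR-101a-3p in 1 each. They include rno-miR-200b-3p, which protects the epithelial state (log2 fold change -1.45, adjusted p = 3.48e-05), and rno-miR-29a-3p, which lowers collagens (-1.70, adjusted p = 3.84e-05). The others with the smallest adjusted p-values were rno-miR-200a-3p (-1.19, adjusted p = 1.53e-04) and rno-miR-29b-3p (-1.29, adjusted p = 7.04e-04). The one that rose was rno-miR-133a-3p, a muscle miRNA, at 0.68 (adjusted p = 0.0082), which did not pass without control library 1 (adjusted p = 0.0585).

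Of 14 wound miRNAs tested, 6 were lower and none was higher (13.8% and 20.8% among all miRNAs tested), with a median of -0.31. The 4 with the smallest adjusted p-values were rno-miR-184, the leading miRNA of cornea and lens epithelium (log2 fold change -1.13, adjusted p = 3.48e-05), rno-miR-203a-3p, which drives keratinocytes out of the cell cycle (-1.21, adjusted p = 4.86e-05), rno-miR-132-3p, which limits inflammation in wounds (-1.37, adjusted p = 1.67e-04), and rno-miR-205, an epithelial miRNA (-0.93, adjusted p = 0.0012). miR-184, miR-203a-3p and miR-205 are also among the epithelial markers. The miR-17 to miR-92 cluster members of the list, miR-17-5p, miR-19a-3p, miR-19b-3p and miR-20a-5p, lay between -0.14 and 0.30 and did not pass. Unlike the fibrosis lists, the wound list and the hypoxia list below were not split by the direction known for each miRNA. Their counts are therefore no measure of a wound or hypoxia response.

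Of 11 other miRNAs known from hypoxia that were tested, 1 was lower and none higher, where 13.8% of all miRNAs tested were lower, and the median log2 fold change was -0.07. This was rno-miR-26a-5p, at -0.33 (adjusted p = 0.0478), which passed in 0 of the 6 fits that left out a library (adjusted p = 0.0569 to 0.105). The paralogues miR-103-3p and miR-107-3p, which lower Dicer, were at 0.13 and -0.07, and miR-24-3p, miR-23a-3p and miR-23b-3p lay between -0.14 and 0.01. Of 8 miRNAs that act on the oxidative stress response through Nrf2 or Keap1, 2 were lower and none higher, rno-miR-200a-3p (above) and rno-miR-7a-5p, at -0.69 (adjusted p = 0.0081). Both are known to lower Keap1, the inhibitor of Nrf2. The other 6 tested did not pass, with log2 fold changes between -0.91 (rno-miR-141-3p, edgeR, adjusted p = 0.155) and 0.17 (rno-miR-93-5p). Without control library 2 or 3 miR-7a-5p did not pass (adjusted p = 0.0596 and 0.0647).

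Markers of cell types moved with the groups in part, with 7 of the 33 tested higher and 6 lower, where 20.8% and 13.8% of all miRNAs tested were. Epithelial markers of lens and eye surface were lower in 4 of 8, with miR-182, miR-183-5p, miR-96-5p and miR-204-5p between -0.40 and 0.21 and not past the test. Their sum ranged from 240060 to 301060 CPM in the control group and from 236480 to 253865 CPM in the Na2SeO3 group. Much of it was again miR-182, miR-183-5p and miR-96-5p, with means of 103905, 42779 and 43905 CPM in the Na2SeO3 group. The 4 that were lower were miR-184, miR-203a-3p, miR-200b-3p and miR-205. Their control means were 81459, 3733, 1613 and 1314 CPM, against 37254, 1610, 590 and 688 CPM in the Na2SeO3 group. Mesenchymal markers were lower in 2 of 6, the linked pair rno-miR-143-3p and rno-miR-145-5p, and their sum was 25296 to 31801 CPM in the Na2SeO3 group, below the control range above. Muscle markers were higher in 4 of 4, with a sum of 12846 to 14196 CPM in the Na2SeO3 group, above the control range. Leukocyte markers, in which miR-21 is also abundant, passed in 0 of 5, and their sums of 153.4 to 190 CPM and 122 to 180 CPM overlapped. Endothelial markers passed in 0 of 2 (25203 to 30518 CPM in the Na2SeO3 group), and erythroid markers were higher in 1 of 3 (253 to 306 CPM and 402 to 518 CPM). Among the erythroid markers rno-miR-486 rose (log2 fold change 1.12, edgeR, adjusted p = 0.0015). rno-miR-451-5p, at 0.06 (adjusted p = 0.833), and rno-miR-144-5p, at 0.41 (adjusted p = 0.526), did not pass. Neuronal markers were higher in 1 of 3 (36194 to 46309 CPM in the Na2SeO3 group), the one being miR-9a-5p, which passed in 1 of the 6 fits with a library left out, and glial markers in 1 of 2 (26.9 to 32.4 CPM and 85.8 to 93.5 CPM). The glial marker that rose was rno-miR-219a-2-3p (log2 fold change 4.26), while rno-miR-338-3p was at -0.93 (adjusted p = 0.0519). None of the 36 markers listed was at 0 in all libraries, and the part of these cell types in the levels of the members was not tested.

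The miRNAs whose log2 CPM followed a member most closely over the 6 libraries were found with Pearson's r, as a description, since libraries of 2 groups that differ push every such r up. For miR-21-5p they were rno-miR-7b (r = 0.965), rno-miR-30c-5p (0.964) and rno-miR-1843a-5p (0.959). Mean levels of rno-miR-30c-5p were 6718 ± 997 CPM against 4564 ± 113 CPM (SD over 3 libraries), with a log2 change of -0.56 (edgeR, adjusted p = 0.0124). It did not pass without control library 2 (adjusted p = 0.0596) or 3 (adjusted p = 0.0668). For miR-31a-5p they were rno-miR-143-3p (0.992), rno-miR-672-5p (0.977) and rno-miR-1843b-5p (0.965), and rno-miR-143-3p had a log2 fold change of -0.60 (adjusted p = 0.0060). For miR-31a-3p they were rno-miR-344b-1-3p (0.965), rno-miR-222-3p (0.956) and rno-miR-30e-5p (0.934). For miR-210-3p they were rno-miR-148a-5p (0.991), rno-miR-325-5p (0.988) and rno-miR-29a-3p (0.982), and the log2 fold change of rno-miR-148a-5p was -0.92 (adjusted p = 0.0012). None of these 12 was the other arm of the member it followed.

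The miRNAs next to a member in mean level showed no common direction. The neighbours of miR-21-5p, rno-miR-30d-5p above and rno-miR-7a-5p below it, were lower in the Na2SeO3 group, with log2 fold changes of -0.44 (adjusted p = 0.0472, passed in 1 of the 6 fits with a library left out) and -0.69 (adjusted p = 0.0081, edgeR). Around miR-210-3p, rno-miR-125b-2-3p was at -0.23 and did not pass (adjusted p = 0.313), and rno-miR-133b-3p, a muscle miRNA, was higher at 0.98 (adjusted p = 0.0071, passed in 3 of the 6). Around miR-31a-5p, rno-miR-384-3p was at -0.15 (adjusted p = 0.633) and rno-miR-542-3p was higher at 1.31 (adjusted p = 6.61e-04). Around miR-31a-3p, rno-miR-760-3p was higher at 0.83 (adjusted p = 0.0431, passed in 1 of the 6 fits with a library left out) and rno-miR-142-3p was at 0.18 (adjusted p = 0.706, edgeR).

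**Figure D4:**
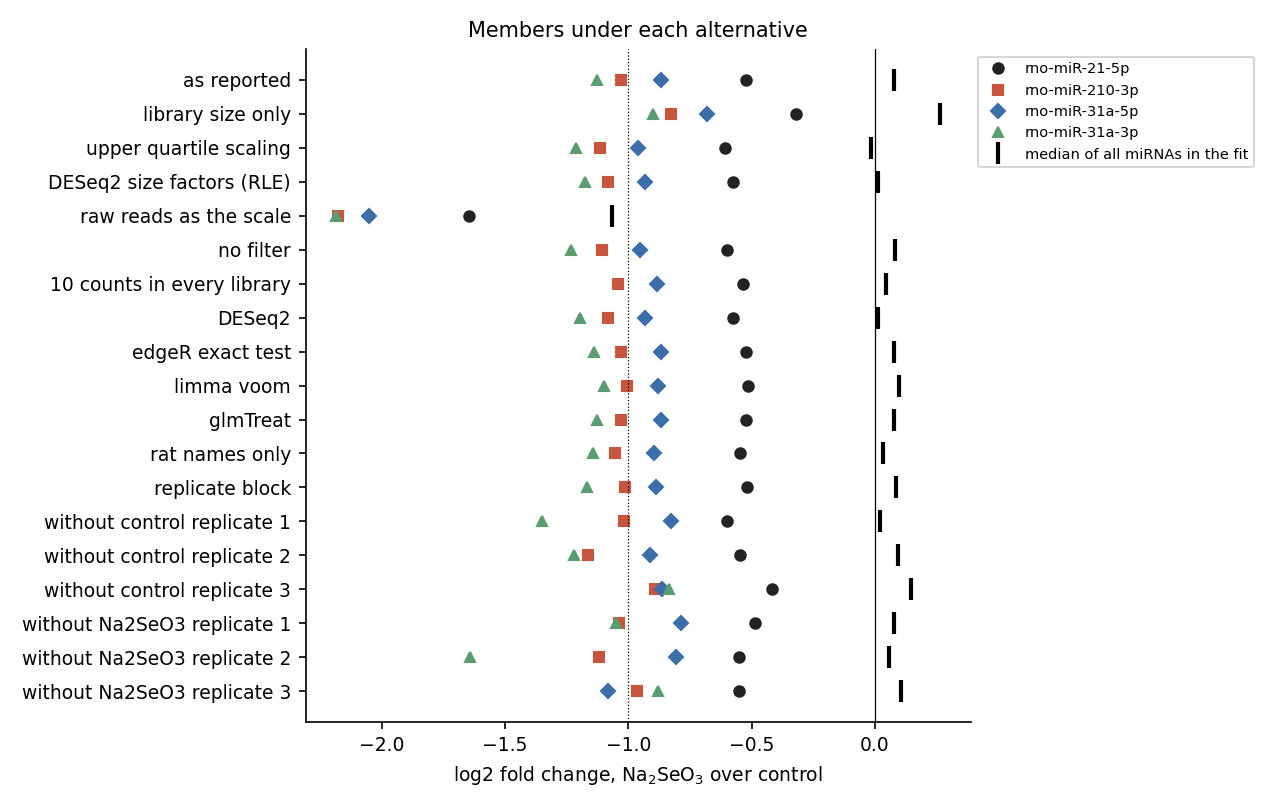
Log2 fold change of each tested member, Na2SeO3 over control, under each alternative to the reported processing (rows), with the median of all miRNAs in the same fit as a black bar and the DEmiRNA threshold as a dotted line. All members lie left of 0 and left of that median in every row. miR-31a-3p has no symbol in the row that requires 10 counts in every library.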

How the data were processed

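Small RNA from 6 lens capsules was sequenced, 3 of each group, with groups and replicate numbers taken from the sample titles. Per the study's methods, Cutadapt and Fqtrim were used for trimming, FastQC for quality and miRDeep for alignment, and the authors deposited raw read counts per miRNA name, neither normalized nor pooled. Tool versions and the genome build are not given in the sources used here.

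Names were filtered with filterByExpr (minimum count 10, a level of 7.21 CPM at the median library size, which the 4 tested members reached in all 6 libraries). Counts were scaled with TMM and compared with edgeR's quasi-likelihood test without covariates, with Benjamini-Hochberg adjustment over 341 miRNAs. A miRNA changed when its adjusted p-value was below 0.05, and it was a DEmiRNA when the absolute log2 fold change also exceeded 1. The p-values measure the spread between animals of each group. CPM on the log2 scale used a prior count of 2, and ratios between members used counts plus 0.5. Standard errors came from the F statistic. The software was edgeR 4.0.16 and, for alternatives, DESeq2 1.42.0 and limma 3.58.1 in R 4.3.3, and the fit was tested on simulated data. No library was a copy of another (lowest chi-square over degrees of freedom of a pair 28.0).

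The members and lists were chosen with earlier results of these data known. The miRNAs named were the members, names with a member's seed, the 3 most correlated rat miRNAs and the neighbours in mean CPM of each tested member, and up to 4 miRNAs per list past the adjusted p-value. Others were named after their values were seen. Mature sequences were matched by name to RefSeq, which held 296 of the 326 rat names tested. Other ways of scaling (library size, upper quartile, RLE, raw reads), filtering and testing (DESeq2, exact test, voom, glmTreat), rat names only, a replicate block and fits without single libraries were tried. The mRNA libraries are not analysed here.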

Additional observations from a re-analysis of the deposited data

How the results depend on the processing

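All 4 members kept a negative log2 fold change in each of the alternatives. miR-31a-5p and miR-210-3p passed the adjusted p-value in all of them except glmTreat, whose null hypothesis is a log2 fold change of at most 1 and which called none of the 4 at their log2 fold changes of -0.52, -0.87, -1.13 and -1.03 (adjusted p = 0.9999 each). With library size only, miR-21-5p (-0.32, adjusted p = 0.0860) and miR-31a-3p (-0.90, adjusted p = 0.0637) did not pass, and without a filter miR-31a-3p did not (-1.23, adjusted p = 0.0869). The number of members past the adjusted p-value, 4, was then 2 with library size only and 0 with glmTreat. The number of DEmiRNAs among the members, 2, was 0 with library size only or glmTreat, 1 without a filter or with 10 counts required in every library, where miR-31a-3p could not be tested, and 4 with raw reads as the scale. With raw reads the summed share of the 7 names had a log2 ratio of -1.66 in place of -0.33.

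Over the 6 fits without 1 library, the log2 fold change ranged from -0.60 to -0.42 for miR-21-5p, -1.08 to -0.79 for miR-31a-5p, -1.64 to -0.84 for miR-31a-3p and -1.17 to -0.89 for miR-210-3p. The number of members past the adjusted p-value ranged from 2 to 4, and of DEmiRNAs among them from 0 to 2. Among all miRNAs tested the 56 DEmiRNAs became 182 with raw reads as the scale and 9 with glmTreat, and 45 to 62 with a library left out. No ratio between members moved by more than the pooled SD of its groups, but without Na2SeO3 library 3 the group difference changed sign for miR-31a-5p over miR-31a-3p (0.30 to -0.16), miR-31a-5p over miR-210-3p (0.13 to -0.12) and miR-31a-3p over miR-210-3p (-0.17 to 0.03). The numbers of listed miRNAs past the adjusted p-value as lower (1 of fibrosis promoting, 10 of fibrosis restraining, 6 of wound, 1 of hypoxia and 2 of oxidative stress miRNAs) became 7, 12, 12, 10 and 8 with raw reads as the scale and 0, 1, 0, 0 and 0 with glmTreat. The 1 hypoxia miRNA was also lost with library size only, without a filter, with the exact test, with the replicate block and with any library left out.

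Libraries of both groups carry numbers 1 to 3 but come from different animals, and deviations of same-numbered libraries correlated at -0.17, -0.18 and -0.26. In the fit with a replicate block the log2 fold changes were -0.52 (miR-21-5p, adjusted p = 0.0309), -0.89 (miR-31a-5p, 0.0095), -1.17 (miR-31a-3p, 0.0423) and -1.01 (miR-210-3p, 0.0055), and no call of a member changed. Of the 4 members tested, miR-31a-3p had the fewest reads.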
